A study of Homo sapiens with 6 samples.

Results

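The 10 genes described here are HERPUD1 and 9 further genes of the unfolded protein response of the endoplasmic reticulum (ER), taken by gene symbol from a table of 57773 genes: HERPUD1, SYVN1, SEL1L, HSPA5, HSP90B1, PDIA4, SDF2L1, CRELD2, MANF and XBP1. They were chosen with their values in this comparison known, so their levels and differences are given as a description and not tested. RNA was sequenced from HEK293 cells, a long-used line of human embryonic kidney origin, in 6 libraries: 3 carry the genotype label TRDMT1 gene knockdown and 3 the label Control. All of them carry the same cell line label and no other treatment, and how the knockdown was made, for how long, and in how many clones are points not given in the sources used here. The comparison asked what changes in these cells when TRDMT1, an RNA cytosine methyltransferase, is depleted. Of the 10 genes, 9 had enough counts to enter the fit across all genes, and MANF did not.

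The unfolded protein response is set off when unfolded proteins build up in the ER, and it is read by 3 sensors in the ER membrane, IRE1 (ERN1), PERK (EIF2AK3) and ATF6. IRE1 splices the XBP1 transcript into the form that encodes an active transcription factor, ATF6 is cut to release another, and PERK phosphorylates the initiation factor eIF2alpha and so favours translation of ATF4. ATF6 and spliced XBP1 act together with the CCAAT-binding factor NF-Y on the ER stress response elements in the promoters of ER chaperone genes. Proteins that fail to fold are carried back to the cytosol for degradation (ERAD) by a membrane complex built on the ubiquitin ligase HRD1, which SYVN1 encodes, with SEL1L and HERPUD1 as partners.

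TRDMT1 was not lower in the knockdown-labelled libraries: it stood at 5.73, 5.76 and 5.73 CPM (counts scaled to a common library total after TMM) there and at 3.76, 4.63 and 2.91 CPM in the control-labelled libraries. The difference on the log2 scale was 0.61 ± 0.21 (standard error) and missed the threshold, with an adjusted p of 0.0705 in edgeR's quasi-likelihood test. Each direction below therefore rests on the genotype labels alone, against the level of the targeted gene, and the groups are named as labelled. The second name in each sample's description, which names its data column, also seems to give the opposite group from its title and label. Whether the labels are swapped was not tested, and a swap would reverse each direction below. The knockdown-labelled libraries held 36455950, 36737468 and 40088993 counts and the control-labelled libraries 26465603, 24776040 and 26802182. Every knockdown library was thus deeper than any control, and depth cannot be told apart from the labels. The control libraries varied far more than the knockdown libraries, with a median coefficient of variation over 17805 tested genes of 24.3% against 6.02%, and control replicate 2 stood apart with a TMM scaling factor of 0.8118 where the other 5 libraries lay between 0.9966 and 1.067. Vimentin, KRT8, KRT18 and PAX2, known from HEK293, were detected in every library, while the blood markers HBA1 and PTPRC lay at or below 0.102 CPM and ALB, the liver marker, at or below 0.648 CPM. In bulk RNA, fewer cells that express a gene and less of its RNA per cell cannot be told apart.

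Exact ER stress elements lay close to the start site of 6 of the 10 genes, and these stretches are shown because elements of this kind are known to carry the response to ER chaperone genes. The promoter windows of RefSeq on GRCh38.p14, from 250 bases before to 50 bases after the start site, were searched on both strands for 4 motifs. They were the ER stress response element ERSE (CCAAT, then 9 bases of any kind, then CCACG), ERSE-II (ATTGG, 1 base of any kind, CCACG), the core of the unfolded protein response element (TGACGTG) and the NF-Y box (CCAAT), which is contained in ERSE and, on the other strand, in ERSE-II. Capitals mark the 2 fixed ends of each element, which read CGTGG and ATTGG or CCAAT where the element lies on the strand opposite the gene, and every stretch is written 5′ to 3′ on the strand of its gene.
HERPUD1, ERSE-II, chr16:56932015-56932044, plus strand: ccggacgccgATTGGgCCACGttgggagag
HSPA5, ERSE, chr9:125241371-125241430, minus strand: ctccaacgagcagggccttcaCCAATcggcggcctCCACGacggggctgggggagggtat
HSP90B1, first ERSE, chr12:103930210-103930239, plus strand: ccctgaCCAATcggaaggagCCACGcttcg
HSP90B1, second ERSE, chr12:103930315-103930344, plus strand: tgggtgCGTGGtgcggcgcgATTGGtgggt
SDF2L1, ERSE-II, chr22:21642089-21642148, plus strand: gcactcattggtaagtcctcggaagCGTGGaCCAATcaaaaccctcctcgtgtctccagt
CRELD2, ERSE, chr22:49918533-49918592, plus strand: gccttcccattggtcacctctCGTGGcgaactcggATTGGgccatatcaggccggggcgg
XBP1, ERSE, chr22:28800598-28800627, minus strand: cgctggCCAATcgcggagggCCACGaccgt

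The element of XBP1 lay nearest its start site, from base -52 to base -34, and that of HSPA5 from -66 to -48. HSP90B1 was the only one of the 10 with 2 exact ERSE matches, from -194 to -176 and, reversed, from -89 to -71. The ERSE-II of HERPUD1 lay from -117 to -107 and that of SDF2L1, reversed, from -188 to -178. Of all 35116 promoter windows, 27 (0.0769%) held an ERSE, 19 (0.0541%) an ERSE-II, 692 (1.97%) the unfolded protein response element core and 12155 (34.6%) an NF-Y box. The windows of SYVN1, SEL1L, PDIA4 and MANF held no exact ERSE or ERSE-II, and no window of the 10 genes held the unfolded protein response element core. A match is a description of the letters, and a missing one says only that these letters are not in this window.

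**Figure D1:**
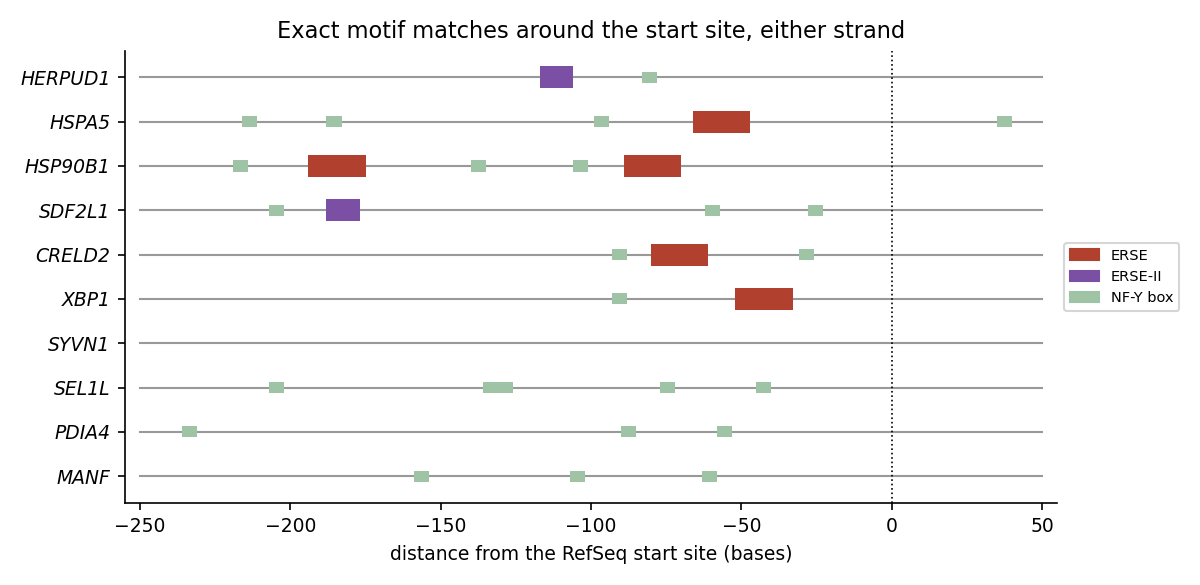
Positions of exact matches to 3 motifs in the RefSeq promoter window of each of the 10 genes, with the distance from the start site in bases on the horizontal axis and 1 line per gene. ERSE or ERSE-II boxes appear for HERPUD1, HSPA5, HSP90B1, SDF2L1, CRELD2 and XBP1, and SYVN1 has no match to any of the 3.

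Of the 9 genes that entered the fit, 8 were higher in every knockdown-labelled library than in any labelled control, and HSP90B1 alone lay the other way. The same 8 did not overlap in RPKM either (counts scaled by exonic length and plain library total), where HSP90B1 did. Over all tested genes, 23.9% had groups that did not overlap with the knockdown libraries higher and 26.0% with the knockdown libraries lower. Because the genes were picked from this comparison, nothing is read from that count. With control replicate 2 left out, all 9 differences kept their sign, and the largest, of HERPUD1, went from 2.50 to 3.02 on the log2 scale.

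XBP1 is both a target and a transcription factor of the response. It stood at 185, 186 and 184 CPM in the knockdown-labelled libraries and at 128, 164 and 50.6 CPM in the control-labelled libraries. The knockdown libraries were almost level, while control replicate 3 was far below the other two controls, and the gap between the lowest knockdown and the highest control library was only 1.12-fold. The log2 difference of 0.70 ± 0.38 fell to 0.34 without control replicate 3 and rose to 1.05 without control replicate 2, so its size rested on which control libraries were used. A count per gene does not separate the spliced from the unspliced XBP1 transcript, so the activity of IRE1 was not measured here.

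HSPA5 encodes BiP, the Hsp70 of the ER, which binds unfolded proteins and holds the sensors inactive. It stood in the knockdown-labelled libraries at 2626, 2525 and 2475 CPM, against 1099.7, 841 and 359 CPM in the control-labelled libraries. Each knockdown library lay at least 2.25-fold above the highest control, and the control libraries themselves spread over a 3.06-fold range with control replicate 3 lowest. The mean was 3.32-fold higher in the knockdown-labelled libraries, and the log2 difference of 1.73 ± 0.39 ranged from 1.39 without control replicate 3 to 2.13 without control replicate 1.

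HSP90B1 encodes GRP94, the Hsp90 of the ER, which folds a narrower set of secreted and membrane proteins. Its levels were 837, 816 and 809.8 CPM in the knockdown-labelled libraries and 1825, 2370.2 and 839 CPM in the control-labelled libraries. Control replicates 1 and 2 were over the knockdown libraries by a wide margin, but control replicate 3 stood at the level of the knockdown libraries. Per length and plain library total the groups met: control replicate 3 was at 184 RPKM, and the knockdown libraries spanned 184 to 189 RPKM. The log2 difference of -1.03 ± 0.36 was -0.70 without control replicate 2 and -1.36 without control replicate 3. After trends of base composition and length were removed from each library it was -0.15 ± 0.36, a difference smaller than its error. C12orf73 and TTC41P overlap HSP90B1 on the opposite strand, and their part in its counts was not tested. The other 8 genes had positive log2 differences. The promoter window of HSP90B1 holds 2 of the elements printed above, and their part in its level was not tested.

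PDIA4 encodes ERp72, a protein disulfide isomerase that forms and rearranges disulfide bonds in the ER. It was at 1009.6, 974 and 985 CPM in the knockdown-labelled libraries and at 347, 456 and 224 CPM in the control-labelled libraries. The knockdown libraries differed by 1.04-fold at most, and the lowest of them lay 2.14-fold above the highest control. Its mean was 2.89-fold higher, a log2 difference of 1.53 ± 0.26 that was 1.53 again after the composition and length trends were removed.

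SDF2L1 and CRELD2 encode small soluble ER proteins that are known as targets of the response. SDF2L1, part of BiP-containing chaperone complexes, had 118, 134 and 135 CPM in the knockdown-labelled libraries and 81.2, 79.2 and 47.0 CPM in the control-labelled libraries. CRELD2, an ER protein with EGF-like repeats, had 163, 171 and 170.3 CPM against 113, 81.1 and 71.3 CPM. Both were just under 2-fold higher in the knockdown-labelled libraries, at 1.87-fold and 1.90-fold, with control replicate 3 lowest in each and a gap of 1.45-fold and 1.44-fold between the nearest libraries of the groups. The log2 differences were 0.90 ± 0.22 for SDF2L1 and 0.92 ± 0.18 for CRELD2. CRELD2 overlaps ALG12, a mannosyltransferase gene on the opposite strand, and whether reads were counted by strand was not given in the sources used here. ALG12 was itself higher in the knockdown-labelled libraries, at 47.8, 47.3 and 47.4 CPM against 24.4, 32.5 and 28.2 CPM (edgeR's quasi-likelihood test, log2 difference 0.74 ± 0.14, adjusted p = 0.0112), a call that was lost without any 1 of the knockdown libraries and after the trends were removed. Its part in the counts of CRELD2 was not tested.

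MANF, a secreted factor that is known to protect cells under ER stress, could not be described by a level. It had 0, 0 and 2 counts in the knockdown-labelled libraries and 0 in each control-labelled library. In the 5 libraries at 0, a count of 0 allows up to 3 counts, 0.0817 to 0.121 CPM of the plain library total, for counting error only. Other ER genes that most cells use were also almost empty in the table: HYOU1, the ER Hsp110, had 9, 3 and 1 counts in the knockdown-labelled libraries and 5, 3 and 4 in the control-labelled libraries, and RNF5, an ER ubiquitin ligase, had 4 counts or fewer in every library. Low counts of MANF are therefore reported only as listed.

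HERPUD1, a membrane protein with a ubiquitin-like domain that helps to assemble the HRD1 complex, showed the largest difference of the 10. It was at 209.8, 203 and 199 CPM in the knockdown-labelled libraries and at 33.1, 58.0 and 17.4 CPM in the control-labelled libraries. The knockdown libraries lay within 1.05-fold of each other, the control libraries spread over 3.32-fold, and the lowest knockdown library was still 3.44-fold above the highest control. Among controls, counting error alone left the libraries apart: the 480 counts of control replicate 3 gave 17.9 CPM of the plain total (95% Wilson interval 16.4 to 19.6), and the 1165 counts of control replicate 2 gave 47.0 (44.4 to 49.8). The mean was 5.64-fold higher, a log2 difference of 2.50 ± 0.40. Leaving out control replicate 3 gave 2.16, leaving out control replicate 2 gave 3.02, and the value was 2.48 after the composition and length trends were removed.

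The transcripts AC012181.1 and AC012181.2 lie inside HERPUD1 on its strand and are counted separately in the table. AC012181.1 had 69, 82 and 92 counts in the knockdown-labelled libraries and 5, 4 and 6 in the control-labelled libraries. AC012181.2 had 80, 65 and 61 counts against 1, 1 and 8. Both were higher in every knockdown library, as HERPUD1 was, and reads of these genes and of HERPUD1 cannot be told apart where they overlap.

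SYVN1, the HRD1 ubiquitin ligase itself, was the steadiest of the larger differences. It stood at 91.4, 86.8 and 93.5 CPM in the knockdown-labelled libraries and at 27.5, 26.1 and 29.4 CPM in the control-labelled libraries. The controls varied by 5.97% here, the least of the 9 genes, and the groups were 2.95-fold apart at their nearest libraries. The log2 difference of 1.71 ± 0.11 lay between 1.67 and 1.75 when any 1 control library was left out, and it was 1.31 ± 0.10 after the trends were removed. MRPL49, a mitochondrial ribosomal protein gene inside SYVN1 on the opposite strand, had 71.1, 71.3 and 72.1 CPM against 50.4, 60.3 and 45.9 CPM. FAU overlaps SYVN1 on the same strand and had 216, 223 and 228 CPM against 231, 511 and 198 CPM. The part of MRPL49 and FAU in the counts of SYVN1 was not tested.

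SEL1L, the adaptor that ties HRD1 to the lumenal lectins which deliver its substrates, differed least of the 8 genes that were higher in the fit of all 6 libraries. Its levels were 141, 134 and 130.5 CPM in the knockdown-labelled libraries and 92.7, 79.9 and 91.4 CPM in the control-labelled libraries. The groups stayed 1.41-fold apart at their nearest libraries, with little spread within either group. The log2 difference was 0.62 ± 0.11, and 0.88 ± 0.10 after the trends were removed, where CRELD2 at 0.80 was below it. Without control replicate 3, XBP1 at 0.34 was below SEL1L at 0.64.

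**Figure D2:**
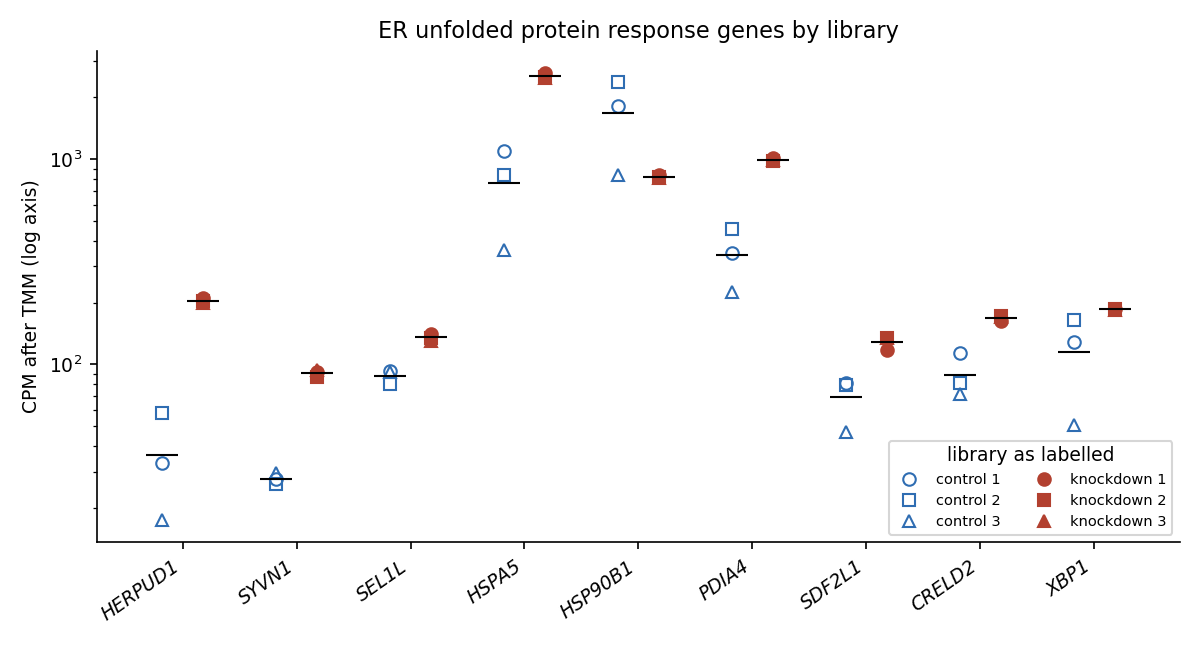
Levels of the 9 genes with enough counts in the 6 libraries, in CPM after TMM scaling on a log axis, with open symbols for control and filled symbols for knockdown libraries as labelled and a line at each group mean. The knockdown libraries sit together for each gene, while the control libraries of HERPUD1, HSPA5, HSP90B1 and XBP1 spread by 2.83-fold to 3.32-fold.

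The order of the levels differed between the groups when set per length. In the knockdown-labelled libraries, mean levels ran from HSPA5 at 691 RPKM, PDIA4 at 321, HSP90B1 at 186 and SDF2L1 at 125 RPKM, through XBP1 at 65.0, HERPUD1 at 51.9 and CRELD2 at 34.5, to SYVN1 at 17.5 and SEL1L at 15.0 RPKM. No neighbours in that order overlapped across the 3 libraries. In the control-labelled libraries, HSP90B1 came first at 327 ± 125 RPKM (SD, n = 3), ahead of HSPA5 at 183 ± 93.2 and PDIA4 at 96.2 ± 22.7 RPKM. Next came SDF2L1 at 58.6 ± 14.9, XBP1 at 34.4 ± 15.0, CRELD2 at 16.2 ± 4.87, SEL1L at 8.75 ± 1.71, HERPUD1 at 7.81 ± 3.48 and SYVN1 at 4.78 ± 0.834 RPKM. Neighbours in the control order overlapped except SDF2L1 with XBP1 and CRELD2 with SEL1L. HERPUD1 was above CRELD2, SYVN1 and SEL1L in the knockdown libraries, whereas in the controls it did not separate from its neighbours SEL1L and SYVN1.

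Ratios within a library do not depend on how libraries are scaled to each other, but they are not free of the composition and length trends. The 7 pairs computed came from genes picked from this comparison, and ratios of other genes were not computed. Nothing is therefore read from how many of them separated the groups. The ratio of HSPA5 to HSP90B1 in RPKM was 3.76, 3.71 and 3.67 in the knockdown-labelled libraries and 0.723, 0.426 and 0.514 in the control-labelled libraries. Per length, HSPA5 was thus above HSP90B1 in each knockdown library and below it in each control library. With the trends removed the log2 difference between groups was 1.87 for HSPA5 and -0.15 for HSP90B1, against 1.73 and -1.03 before, so this contrast was smaller. PDIA4 to HSP90B1 was 1.73, 1.71 and 1.74 against 0.272, 0.275 and 0.383, again on opposite sides of 1. Between the partners of the ERAD complex, SYVN1 to SEL1L was 1.13, 1.13 and 1.25 against 0.516, 0.569 and 0.56. With the trends removed the log2 difference was 1.31 for SYVN1 and 0.88 for SEL1L, against 1.71 and 0.62 before. The contrast between these partners was thus smaller as well. HERPUD1 to XBP1 was 0.82, 0.791 and 0.786 against 0.187, 0.257 and 0.25, so HERPUD1 was lower relative to XBP1 in every control library. HSPA5 to HERPUD1, at 13.3 to 13.4 against 15.5 to 35.5, was lower in every knockdown library. The groups overlapped for HSPA5 to PDIA4, at 2.11 to 2.18 against 1.34 to 2.66, and for HERPUD1 to SYVN1, at 2.81 to 3.08 against 0.781 to 2.91. A ratio shows unequal change and not which gene changed.

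**Figure D3:**
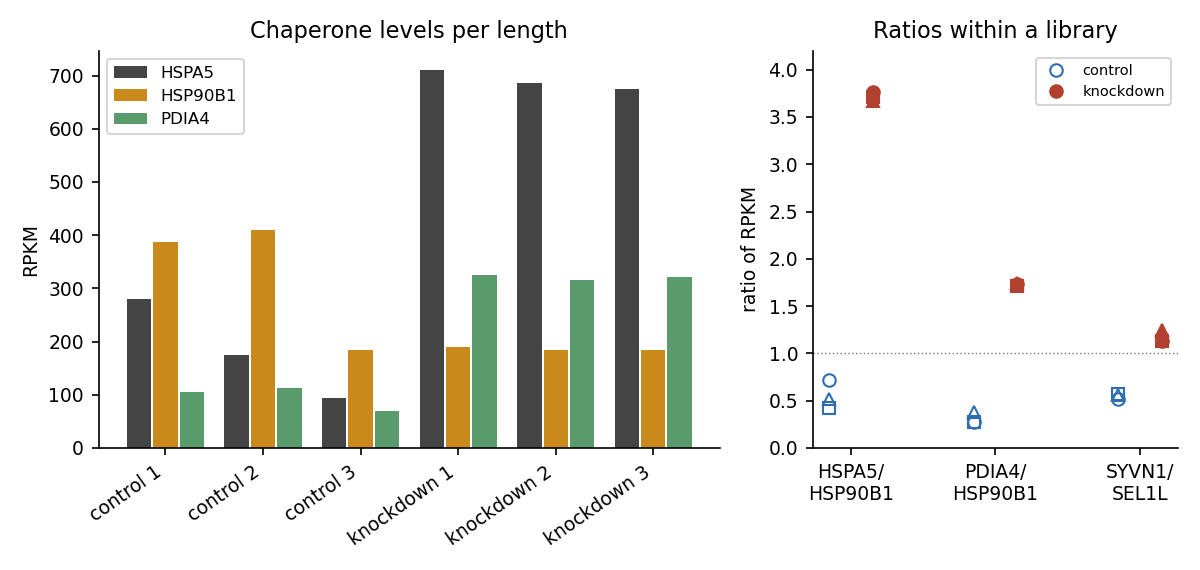
Left, RPKM of HSPA5, HSP90B1 and PDIA4 as bars in each library as labelled. Right, ratios of RPKM within each library with a dotted line at 1: HSPA5 to HSP90B1, PDIA4 to HSP90B1 and SYVN1 to SEL1L, the ratios plotted, are above 1 in the 3 knockdown libraries and below 1 in the 3 control libraries.

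The spread among controls was ordered. Control replicate 3 was the lowest control library for 7 of the 9 genes, all but SYVN1 and SEL1L, and for 33.9% of all tested genes. The same held beyond these genes: of 119 other tested genes of ER protein quality control, control replicate 3 was lowest for 75 (63.0%), among them 22 of 28 chaperones and cochaperones (78.6%). Control replicate 2 was the highest control for 68 of the same 119 genes (57.1%), against 42.8% of all tested genes. By list it was highest for 11 of 16 genes of the PERK and ATF4 branch (68.8%) and 18 of 28 chaperones and cochaperones (64.3%). For sensors and transcription factors it was 10 of 17 (58.8%), and the shares were lower for ERAD genes and for disulfide isomerases and oxidases. A high control replicate 2 was thus not particular to the PERK and ATF4 branch. Named after their values were seen, ATF4 stood at 759, 2371 and 399 CPM in control replicates 1, 2 and 3, DDIT3 (CHOP), the factor linked to death under lasting ER stress, at 15.1, 78.2 and 6.58 CPM, and NUPR1, a stress-induced chromatin protein, at 12.8, 70.9 and 3.16 CPM. The knockdown libraries lay inside those ranges, at 645 to 692 CPM for ATF4, 33.2 to 34.9 CPM for DDIT3 and 7.12 to 8.02 CPM for NUPR1. What set the control libraries apart was not tested.

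The rest of the pathway moved in both directions. The 5 lists written for this description, with the 10 genes left out, held 126 genes in the table, of which 119 were tested. Of these, 13 (10.9%) were called higher and 18 (15.1%) lower in the knockdown-labelled libraries at an adjusted p below 0.05 in edgeR's quasi-likelihood test, and 88 were not called. Over all 17805 tested genes, 1654 (9.29%) were called higher and 2613 (14.7%) lower, so in this fit the lists lay near the background, and their median log2 difference was -0.01 against -0.04 for all tested genes. Without control replicate 2, which stood apart, 45 of the 119 (37.8%) were called higher and 29 (24.4%) lower, against 22.9% and 25.6% of all genes tested in that fit. Without any 1 of the knockdown libraries, 6 and 4 were called, among them DNAJC3, TXNDC11, TMX4, TRIB3 and SESN2 higher and NFYB, NGLY1, DNAJC10 and LMAN1 lower. In those fits, all genes gave 1.87%, 1.94% and 1.71% higher and 5.12%, 5.43% and 4.96% lower without replicates 1, 2 and 3. Without control replicate 1, 9 and 7 were called, against 3.64% and 7.32% of all genes. With plain library totals, which move the median of all genes to 0.13, the lists gave 20 higher (16.8%) and 7 lower (5.88%), against 10.6% and 9.26% of all genes. With limma-trend on log2(RPKM + 1) they gave 21 higher (17.6%) and 6 lower (5.04%), against 12.9% and 8.58%. With composition and length trends removed they gave 21 higher (17.6%) and 13 lower (10.9%), against 9.38% and 11.3%.

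**Figure D4:**
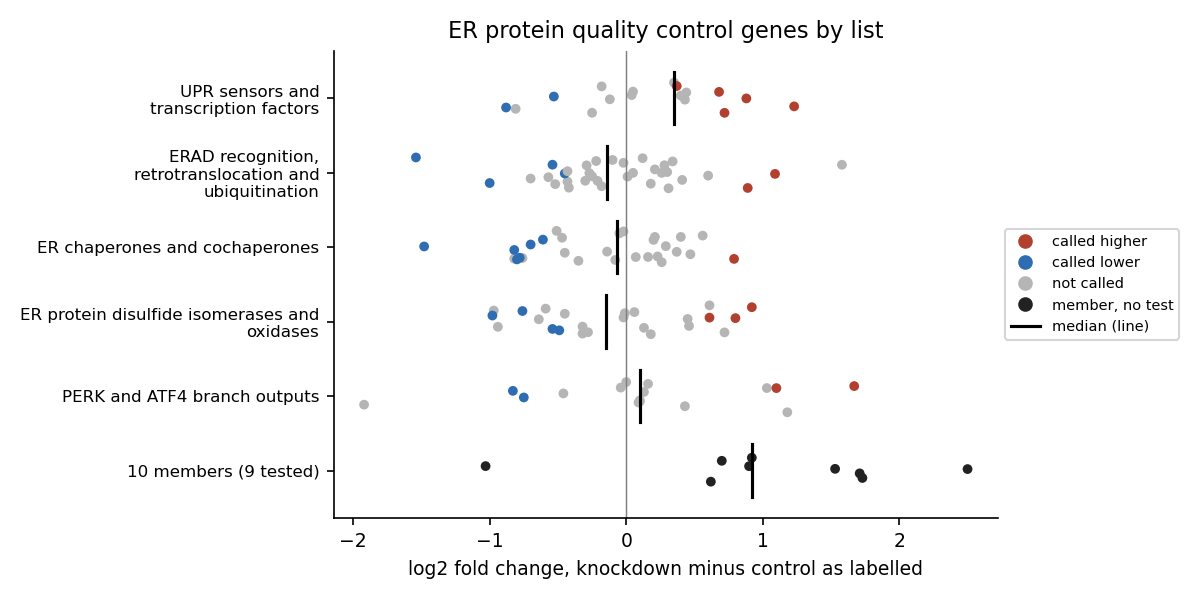
Log2 differences, knockdown minus control as labelled, of each tested gene in the 5 lists and of the 9 described genes with enough counts. Points are genes, colours give the call in edgeR's quasi-likelihood test, and the line is each list's median, between -0.15 and 0.35 for the lists.

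Sensors and transcription factors of the response gave 5 genes called higher and 2 lower of 17 tested, with a median of 0.35. Without control replicate 2 the counts were 9 and 2 (52.9% and 11.8%), in a fit that called 22.9% of all genes higher and 25.6% lower. ERN1, the IRE1 kinase and RNase that splices XBP1, rose from 12.4, 9.75 and 14.9 CPM in the control-labelled libraries to 23.0, 22.1 and 23.1 CPM in the knockdown-labelled libraries (log2 difference 0.88 ± 0.18, adjusted p = 0.0144). EIF2AK3, the PERK kinase, rose from 24.7, 20.8 and 24.3 CPM to 39.5, 39.5 and 36.5 CPM (0.72 ± 0.13, adjusted p = 0.00898). MBTPS1, the site-1 protease that cuts ATF6 in the Golgi, rose by 0.68 ± 0.11 (adjusted p = 0.00706). NFYB, a subunit of NF-Y, fell by 0.88 ± 0.14 on the log2 scale (adjusted p = 0.00631), and by 0.19 with the composition and length trends removed, where it was no longer called. CREB3L2 and TRAF2 were the other two called higher and RTCB the other called lower. ATF6 itself was at 80.0, 71.9 and 75.3 CPM in the knockdown libraries and 85.7, 87.9 and 83.4 CPM in the controls and was not called (-0.18 ± 0.11, adjusted p = 0.252). In this list the call of NFYB alone held when any 1 knockdown library was left out. The calls of ERN1, CREB3L2, TRAF2 and RTCB were also lost without control replicate 1, though none of these differences moved by over 1.5-fold, and that of TRAF2 without control replicate 3. With the trends removed MBTPS1 was at 0.45 and TRAF2 at 0.19, and neither was called.

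Of 34 tested ERAD genes, 2 were called higher, 4 lower and 28 neither, and the median was -0.14. Without control replicate 2 the counts were 8 and 10 (23.5% and 29.4%), against 22.9% and 25.6% of all genes in that fit. FOXRED2, an ER flavoprotein of ERAD, rose from 75.7, 47.7 and 85.3 CPM in the control-labelled libraries to 149.5, 145 and 150.5 CPM in the knockdown-labelled libraries (1.09 ± 0.21, adjusted p = 0.0135), and its call was lost without any 1 knockdown library or control replicate 1. NGLY1, the cytosolic glycanase that strips N-glycans from ERAD substrates, fell from 58.9, 46.9 and 42.6 CPM to 25.2, 24.6 and 24.2 CPM (-1.0 ± 0.15, adjusted p = 0.00546). UBE2G2, UBE2K and UFD1L were the others called lower, each lost without any 1 knockdown library or control replicate 1. UBE2G2, a ubiquitin-conjugating enzyme, had 14 counts or fewer in every library. UBE2K, another, turned from -0.45 to 0.10 and was not called with the composition and length trends removed.

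Of 28 tested ER chaperones and cochaperones, 1 was called higher and 6 lower, with a median of -0.07. DNAJC3, the BiP cochaperone p58IPK, was the one called higher, at 65.4, 63.7 and 65.6 CPM against 38.4, 40.4 and 33.6 CPM (0.79 ± 0.12, adjusted p = 0.00546). DNAJC10, an ER disulfide reductase that works with BiP in ERAD, fell from 179.6, 166 and 160.2 CPM to 96.7, 97.9 and 96.9 CPM (-0.80 ± 0.11, adjusted p = 0.00359), and was -0.47 and not called with the composition and length trends removed. LMAN1, a cargo receptor for export from the ER, fell by 0.78 ± 0.11 (adjusted p = 0.00444), and FKBP11, a prolyl isomerase, fell by 0.82 ± 0.14 (adjusted p = 0.00796). SEC63, UGGT2 and FKBP7 were the others called lower. With the composition and length trends removed the list gave 5 higher and 3 lower, and without control replicate 2 it gave 9 higher and 7 lower.

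Of 24 tested disulfide isomerases and oxidases, 3 were called higher and 4 lower, with a median of -0.15. Without control replicate 2 they were 9 and 8 (37.5% and 33.3%), against 22.9% and 25.6% of all genes in that fit. TXNDC11, a thioredoxin-domain protein of the ER, was at 52.5, 50.2 and 53.1 CPM in the knockdown-labelled libraries and at 27.4, 29.0 and 25.9 CPM in the control-labelled libraries (0.92 ± 0.11, adjusted p = 0.00267). TMX4, a membrane-bound thioredoxin, rose by 0.80 ± 0.13 (adjusted p = 0.00618) and QSOX2, a sulfhydryl oxidase, by 0.61 ± 0.11 (adjusted p = 0.00881). TMX1, another membrane-bound thioredoxin, fell by 0.98 ± 0.23 (adjusted p = 0.024), and PDIA5, TMX3 and SELM were also called lower. None of the 4 was called lower without any 1 knockdown library, without control replicate 1, with plain library totals or with limma-trend, and with composition and length trends removed TMX1 was at -0.27 and TMX3 at -0.23, neither called. The call of QSOX2 was also lost without any 1 knockdown library. Among 16 genes listed for the PERK and ATF4 branch, TRIB3 and SESN2 were called higher and EIF2S1 and EIF2B5 lower, with a median of 0.10. EIF2S1 encodes eIF2alpha, the substrate of PERK, and EIF2B5 encodes a translation initiation factor subunit, so neither is an output of the branch. TRIB3, a pseudokinase induced by ATF4 and CHOP, was at 167, 177 and 177 CPM against 54.7, 61.2 and 47.5 CPM (1.67 ± 0.13, adjusted p = 0.000537). Without control replicate 2, 10 of the 16 (62.5%) were called higher and 2 (12.5%) lower. In that fit 22.9% of all genes and 37.8% of the 119 list genes were called higher, and 25.6% and 24.4% lower.

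Of the 14 closest family relatives of the described genes, 3 were called higher, 2 lower and 9 neither. Over all tested genes 9.29% were called higher and 14.7% lower, and nothing is read from the count of the 14. HSPA8, the constitutive cytosolic Hsp70, was at 1016, 979 and 997 CPM in the knockdown-labelled libraries and 2624, 3183 and 1824 CPM in the control-labelled libraries, opposite to its ER relative HSPA5 (-1.35 ± 0.24, adjusted p = 0.0102). HSP90AA1, the inducible cytosolic Hsp90, fell as well (-1.31 ± 0.30, adjusted p = 0.0219), while HSP90AB1, its constitutive partner, was at 1946, 1893 and 1861 CPM against 1857, 1881 and 1973 CPM. TRAP1, the mitochondrial Hsp90, rose by 0.52 ± 0.12 (adjusted p = 0.0204). The calls of HSPA8, HSP90AA1 and TRAP1 were lost without any 1 of the knockdown libraries, and those of HSP90AA1 and TRAP1 also without control replicate 1. TRAP1 was at 0.34 and not called with the composition and length trends removed. With plain library totals HSP90AA1 was lower and not called. PDIA3 and PDIA6, relatives of PDIA4, were not called, with log2 differences of -0.01 ± 0.21 and 0.06 ± 0.16. Neither HERPUD2 (0.28 ± 0.19), SEL1L3 (0.26 ± 0.12), HSPA9 (-0.28 ± 0.16), SDF2 (-0.51 ± 0.25), CRELD1 (0.37 ± 0.32) nor CDNF (0.47 ± 0.23) was called. CREB3L2, an ER-anchored transcription factor of the bZIP class to which XBP1 belongs, rose from 55.1, 24.8 and 57.9 CPM to 115, 104 and 106 CPM (1.23 ± 0.30, adjusted p = 0.028).

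The patterns most like that of HERPUD1 over the 6 libraries were sought among 7694 tested protein-coding genes with at least 5 RPKM in the higher group, by the root mean square distance between centred log2 CPM. The nearest were TMEM47 at 0.352, STS at 0.417, ECHDC3 at 0.436, DERL3 at 0.469 and HDHD1 at 0.496. TMEM47, STS and HDHD1 lie on chromosome X. DERL3, a derlin of the ERAD channel, was at 127, 127 and 136 CPM in the knockdown-labelled libraries and at 26.7, 83.6 and 20.2 CPM in the control-labelled libraries. Like HERPUD1, the genes DERL3, ECHDC3 and HDHD1 were highest among controls in control replicate 2 and lowest in control replicate 3. The log2 difference of DERL3, 1.58 ± 0.51, was not called (edgeR's quasi-likelihood test, adjusted p = 0.0617). Without control replicate 2 it was called, at 2.48, in a fit that called 48.5% of all genes. With the composition and length trends removed it was 1.24 ± 0.52 and not called. Of the described genes, HSPA5 at 0.523 and PDIA4 at 0.573 were nearest to HERPUD1, each with 6 candidates closer. SYVN1 followed at 0.727 with 16 closer, XBP1 at 0.912 with 38, SDF2L1 at 0.917 with 39, CRELD2 at 0.98 with 81 and SEL1L at 1.16 with 623. HSP90B1 at 1.79 was farther than 6862 of the candidates. The distance includes the contrast from which the genes were chosen and is given as a description.

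Chromosomes differed in their median log2 difference, and the described genes lay on chromosomes of both signs. The other 653 tested protein-coding genes of chromosome 16, which carries HERPUD1, had a median of 0.52, with 41.8% called higher, and its nearest tested neighbours were NUP93 (0.48, called higher), MT1X (-0.40, not called), NLRC5 (1.19, not called) and CPNE2 (0.63, called higher). The difference of HERPUD1, 2.50, lay above that median and above all 4 neighbours. Chromosome 11 with SYVN1 stood at 0.30, with 28.5% called higher, and chromosome 9 with HSPA5 at 0.28, with 25.1%. Over all tested genes 9.29% were called higher. HERPUD1, HSPA5 and SYVN1, which had the largest positive differences of the described genes, thus lay on the chromosomes with the highest medians among theirs. Chromosome 14 with SEL1L had a median of -0.50 with 0.214% of its genes called higher, so SEL1L was higher on a chromosome whose genes were mostly lower. Chromosome 12 with HSP90B1 was at -0.12, chromosome 7 with PDIA4 at -0.06 and chromosome 22 with SDF2L1, CRELD2 and XBP1 at 0.05. Their part in the differences of single genes was not tested.

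Genes outside the 10 that share the promoter elements printed above were mixed in direction. Of 12272 tested genes matched to a promoter window, 12 others held an exact ERSE, of which 3 were called higher and 2 lower, with a median of 0.32 against -0.04 for all matched genes (9.83% called higher and 15.5% lower). The genes named here were picked after their values were seen. FICD, which modifies BiP by AMPylation, stood at 19.5, 17.2 and 19.2 CPM in the knockdown-labelled libraries and at 9.03, 9.3 and 7.74 CPM in the control-labelled libraries (1.10, adjusted p = 0.00322 in edgeR's quasi-likelihood test). TRIM5 and ALG12 were the others called higher, and ZNF17 and EIF2A were called lower. ALG12 overlaps CRELD2, and whether its element is the same as that printed for CRELD2 was not checked. The call of ALG12 was lost without any 1 knockdown library and after the composition and length trends were removed. CALR and CANX, the lectin chaperones of the ER, also hold the element and were not called, with differences of 0.23 ± 0.39 and 0.40 ± 0.19, CALR ranging from 579 to 1888 CPM over the controls. Among 11 other genes with an ERSE-II, the element of HERPUD1 and SDF2L1, 1 was called higher and 2 lower, with a median of -0.15.

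The differences of the 9 genes were recomputed under each alternative, and none changed sign in any of them. Without control replicate 2, which stood apart, HSPA5 was at 1.80, PDIA4 at 1.79, SYVN1 at 1.67, SDF2L1 at 1.01, CRELD2 at 0.87 and SEL1L at 0.56. Removing 1 control library moved XBP1 by more than 1.5-fold, from 0.70 to 0.34 without control replicate 3 and to 1.05 without control replicate 2. Plain library totals raised the 8 positive differences, HERPUD1 to 2.73 and SYVN1 to 1.87, and moved HSP90B1 to -0.81. Removing composition and length trends moved HSP90B1 most, to -0.15, and SYVN1 from 1.71 to 1.31.

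**Figure D5:**
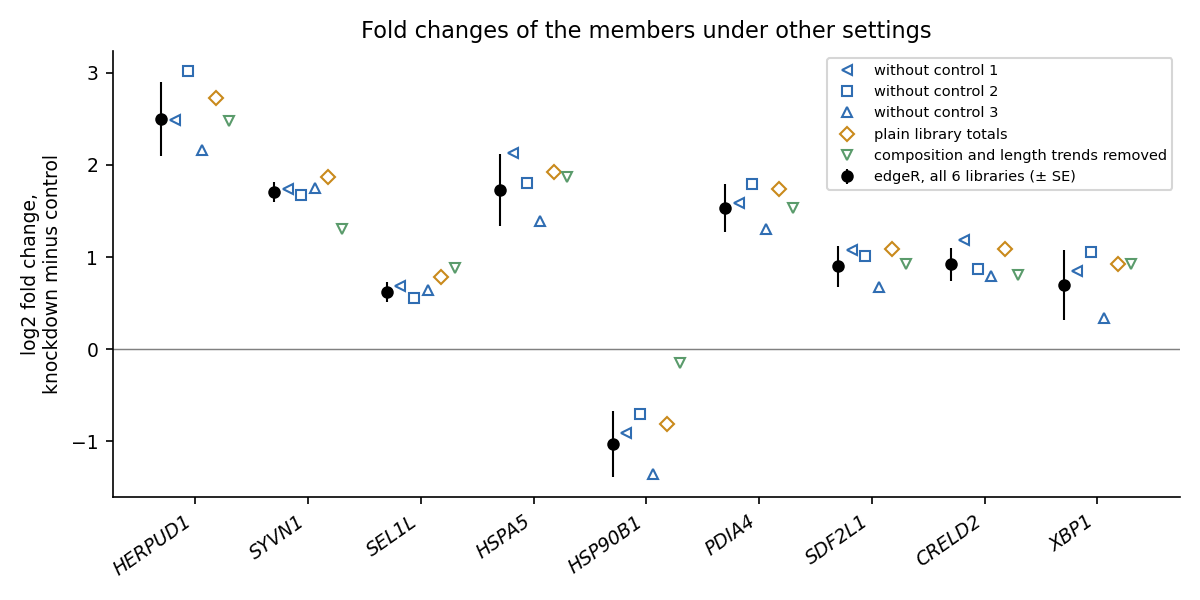
Log2 differences of the 9 genes, knockdown minus control as labelled, in the fit of all 6 libraries with its standard error as a bar, without each control library, with plain library totals and with composition and length trends removed. HSP90B1 stays below 0 and reaches -0.15 with the trends removed, and the other 8 stay above 0.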

How the data were processed

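The members, the gene lists, the rule for named genes and the alternatives were chosen with earlier results of these data known. The authors deposited counts per gene, not normalized, and RPKM computed from them, with exonic gene length in bases (another unit, per the file headers). The submitters' processing notes name build hg19 and, with no role stated, edgeR 3.4.6, DESeq 1.18.0, DESeq2 1.6.3, StringTie 1, HTSeq 0.6.1 and bcl2fastq 2.17.1.14. The aligner, annotation and strand setting are not given in the sources used here. Per the labels' protocols, ribosomal RNA was depleted, RNA was treated with an RNA methylation kit and stranded total RNA libraries were made. Whether the counted libraries had that treatment, which can change how reads of different base composition map, was not given in the sources used here. The deposited RPKM equalled count over length and library total within 0.006 for 100% of values. Columns were tied to samples through the descriptions, whose second names and titles seem to name opposite groups.

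Counts were tested in R 4.3.3 with edgeR 4.0.16 (quasi-likelihood F test, TMM, filterByExpr, robust) over all 6 libraries, with Benjamini-Hochberg adjustment over 17805 genes and a threshold of 0.05, and the script was tested on simulated data. CPM are after TMM. Totals of 24776040 to 40088993 counts set the counting error, and Wilson intervals and floors of 3 counts cover that error only. No label ties the libraries to separate cultures, and p-values then measure only how these samples spread, perhaps for technical reasons. Alternatives were DESeq2 1.42.0, RLE size factors, plain totals, other count filters, limma-trend (limma 3.58.1) on log2(RPKM + 1) and log2(RPKM + 0.1), smooth trends of base composition and length as offsets (mgcv 1.9.3, composition from GENCODE transcripts for 97.2% of tested genes), leaving out each library and a replicate block. Named genes were the 10 members, TRDMT1, called genes of 5 lists (values for at most 4 per list, those with the smallest p), the members' relatives, the 5 genes most like HERPUD1 and its nearest neighbours. Promoter windows came from RefSeq on GRCh38.p14, matched by symbol. Genes overlapping a member came from GENCODE. Some genes that this rule names are counted but not reported here.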

Additional observations from a re-analysis of the deposited data

How the results depend on the processing

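The count of all genes called, 4267, was 1191 to 9063 with 1 library left out, lowest without knockdown replicate 3 and highest without control replicate 2. The 13 list genes called higher became 20 with DESeq2, 20 with plain library totals, 21 and 20 with limma-trend on log2(RPKM + 1) and log2(RPKM + 0.1), and 21 with composition and length trends removed. With 1 library left out they were 6 to 45. The 18 called lower became 7 with plain totals and 6 with each limma fit, and were 4 to 29 with 1 library left out. UBE2K went from -0.45 to 0.10 with the trends removed. Fits without a library use fewer samples. The count of all genes called was 9063 and 5417 without control replicates 2 and 3, and it fell without any other library. The spread between replicates estimated by edgeR (biological coefficient of variation) was 31.8% in the control and 5.43% in the knockdown libraries. The fit used a dispersion shared by both groups, which limits its adjusted p-values. The cause of these shifts was not tested. Replicate numbers did not pair the samples: same-numbered libraries correlated at -0.04, 0.057 and 0.001 in their deviations, and with the replicate as a block 2976 genes were called in all, with 14 list genes higher and 11 lower. Depth limits MANF and other genes near 0 counts, and every knockdown-labelled library was deeper than any control.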
